A study of Mus musculus with 10 samples.

Results

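The genes described here encode the motors and filaments of the neuronal cytoskeleton: kinesins, dyneins and dynactin, unconventional myosins, tubulins, microtubule-associated proteins, stathmins and neurofilaments. They were chosen by gene symbol, as every probe whose single symbol on the array's platform annotation begins with or equals one of the family names (Kif, Klc, Dync, Dynl, Dctn, Tub, Myo, Map, Mapre, Stmn, Nef and their variants). That rule found 70 probes for 68 genes, of 9066 probes with 1 symbol that stood for 8726 genes. One of them, Mtap, encodes methylthioadenosine phosphorylase and was caught by its spelling alone. It is kept apart below.

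The RNA came from the prefrontal cortex of male DBA/1 mice aged 8 weeks at injection. Immunisation with type II collagen is a standard way to induce arthritis in this inbred strain. DBA strains carry the dilute coat-colour allele of Myo5a, which both arms therefore share. Collagen mice were injected with type II collagen, 100 µl mixed into 100 µl of Complete Freund's adjuvant, and control mice with 200 µl of that adjuvant without collagen. Collagen and the smaller adjuvant volume therefore cannot be told apart in any ratio below. Both arms were given LPS at day 24. Every one of 10 arrays, printed with oligonucleotides, carried RNA of both arms in 2 colours, in 5 dye-swap pairs in which collagen and control RNA exchange dyes. Their titles carry the numbers 1, 2, 3, 1 and 2. They are called pairs 1 to 5 here and make 3 replicates, with pairs 1 and 4 in replicate 1, pairs 2 and 5 in replicate 2 and pair 3 alone as replicate 3. The labels give neither the number of mice per replicate nor whether mice were pooled, so the spread that the tests use is that of 3 replicate means and may be technical. All ratios are log2 of collagen over control after global loess (an intensity-dependent correction fitted to each array reading as a whole). Their direction is likely rather than settled, because the files name the channels A and B and not by dye. If A were Cy5, every sign below would turn.

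Microtubules are hollow polymers of alpha and beta tubulin that run the length of axons and dendrites. Kinesins carry vesicles and organelles mostly towards the plus end and, in axons, away from the cell body, while cytoplasmic dynein with its activator dynactin carries them back. Myosins move on actin instead, for example in dendritic spines. Microtubule-associated proteins bind and steady the polymer, stathmins sequester tubulin and favour its disassembly, and neurofilaments set the calibre of large axons.

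None of these genes passed the test of collagen against control cortex. limma, with Benjamini-Hochberg adjustment over all 4125 probes measured in all 3 replicates, called 0 of the 47 members it could test, against 0 of 4125 probes in all (0%). The lowest adjusted p among the members was 0.642, shared with the lowest of all probes. At an unadjusted p under 0.05, 1 member was higher, the membrane-linking myosin Myo1c, where 2.38% of all probes were higher. At the same threshold 3 members were lower, where 4.12% of all probes were lower: the microtubule-associated protein Map1b, the vesicle motor Myo5a and the neurofilament Nefm. The differences were small: 40 of the 47 members (85.1%) lay within 0.25 of 0 on the log2 scale, against 88% of all probes, and no member lay beyond 0.5.

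Depth here is the number of arrays on which both channels of a spot stood above background. Both channels were measured on 45.2% to 85.9% of listed probes per array, and on 33 to 64 of the 70 member probes (47.1% to 91.4%). Pairs 1 and 2 measured the fewest. The members were measured more often than the array as a whole: 67.1% of member probes had a value in all 3 replicates, against 45.4% of all listed probes. On all 10 arrays, 21 members (30%) were measured, against 20.3% of listed probes. The remaining 23 members are accounted for as follows. No pair measured the mitotic kinesins Kif4, Kif22 and Kif2b or the myosins Myo15, Myo1a, Myo7b and Myo9b, and the other 16 had pairs in 1 or 2 replicates only.

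How often a motor was measured differed between groups of known role. The role groups were drawn up with the values known, so they carry no test. Of 10 kinesins that carry cargo along axons, dendrites or cilia, 8 were measured in all 3 replicates, with a median of 7.5 arrays and a range of 3 to 10. Of 7 kinesins of the spindle and of cell division, 2 were measured in all 3 replicates (Kif11 and Kif2c), with a median of 3 arrays. All 7 subunits of cytoplasmic dynein 1 or its light chain families reached all 3 replicates, on 6 to 10 arrays. Of 8 myosins best known from the inner ear, gut, muscle, other epithelia or leukocytes, 1 did (Myo3a), with a median of 4 arrays, while 4 of the other 7 myosins did. Myo1c, on 9 arrays, was counted among the other 7 although it also acts in the ear, so the contrast depends on that placement. The median over all listed probes was 6 arrays. A missing value says only that a spot was flagged or not above background there, not that the gene was silent. Bright probes could also be missing: Dync1i2, at a mean log2 intensity of 19.32, was measured on 6 arrays.

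**Figure D1:**
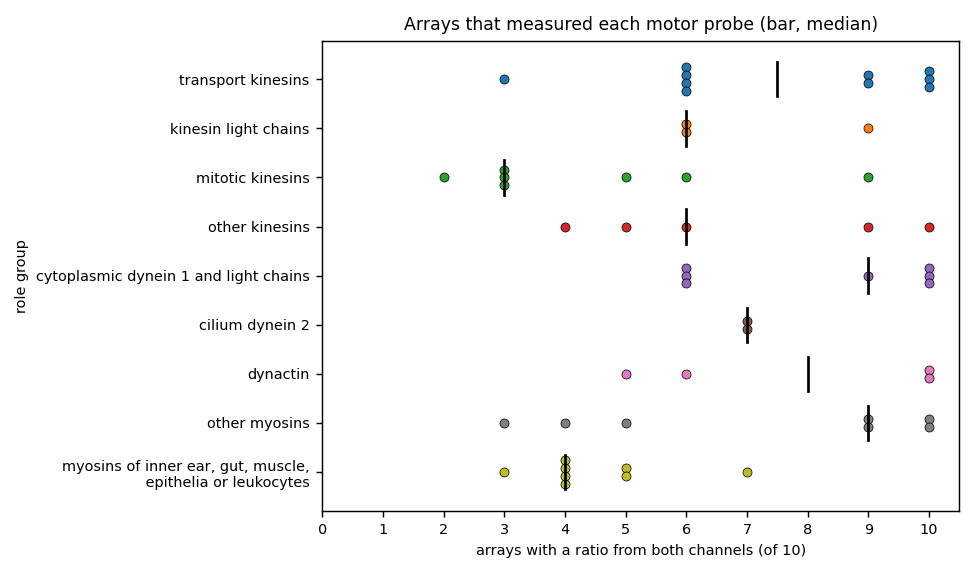
Number of arrays, of 10, on which both channels of each motor probe gave a ratio (x axis), by role group (y axis). Each point is 1 probe and the black bar is the group's median. Mitotic kinesins sit at a median of 3 arrays, against 7.5 for kinesins that carry cargo.

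Among the kinesins, 16 of 25 probes were tested, with 6 higher, 10 lower and a median log2 ratio of -0.055, against -0.019 over all probes tested. Kif1b, a carrier of mitochondria and synaptic vesicle precursors, had the smallest p on the lower side. Its log2 ratios were -0.295, -0.09, -0.56, -0.09 and -0.08 in pairs 1 to 5, all below 0, though 4 of the 5 are much closer to 0 than the one of pair 3. The mean over replicates was -0.28 (SE 0.12, n = 3 replicates, 95% interval -0.57 to 0.016), with adjusted p = 0.642 by limma. Without replicate 3 it was -0.14. The collagen channel averaged a log2 intensity of 19.02 over the 10 arrays and the control channel 19.24.

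Kif11, the motor that pushes spindle poles apart, had the smallest p on the higher side. Its log2 ratios were 0.08, 0.23, 0.26 and 0.38 in pairs 1, 2, 3 and 5, and pair 4 gave none. The mean was 0.22 (SE 0.10, 95% interval -0.02 to 0.45, adjusted p = 0.642 by limma, n = 3 replicates). All 4 pairs read higher, but single arrays were divided, with 5 higher and 4 lower, and the value was 0.002 when the loess was fitted to each printed grid by itself and -0.017 with median centring. The closely related heavy chains of conventional kinesin read on both sides of 0. Kif5b had the highest mean intensity of the kinesin class and read -0.07 (SE 0.09), from -0.10, 0.05, -0.06 and -0.145 in pairs 1, 2, 3 and 5. Kif5c, its neuronal relative, read 0.16 (SE 0.11). Kif5a, the other neuronal heavy chain, was measured in 2 pairs only, at -0.61 in pair 4 and 1.395 in pair 5, and was not tested. Kif5a and Kif5c are named because their values were seen.

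The light chain gene Klc1, which links conventional kinesin to its cargo, was the only gene with 2 probes in the test, at different places on the array. The probe in grid row 2 read -0.17, 0.024 and -0.12 in pairs 3, 4 and 5, and -0.089 as the mean (SE 0.09). The probe in grid row 4 read -0.08, 0.22 and -0.049 in the same pairs, and 0.03 as the mean (SE 0.10). Both probes were highest in pair 4 and below 0 in pairs 3 and 5, and their means lay on opposite sides of 0. The probe in grid row 2 also depended on the reading, at -0.445 from the lowest gain and 0.147 from the highest. The gap between the probes was smaller than their standard errors added together, and adjusted p was 0.736 and 0.928 by limma.

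Most transport kinesins also had a negative dye effect, which the comparison cancels. The dye effect, the ratio of Cy5 over Cy3 whatever the sample, was below 0 in 6 of 8 of them. Its median was -0.41 on the log2 scale, against 0.054 over all probes. It varied with place on the array. These 6 lay in grid rows 7 to 11, and Kif1b and Kif5b, above 0, in grid row 4. Members of other classes could read alike, such as Map2 at -0.54 and Dync1h1 at -0.453, both in grid row 12. Mapre3, Mtap and Klc4, in grid rows 9 and 10, read 0.039, 0.025 and 0.006. The part of place was not tested. limma called the dye effect of 74 of 4125 probes (1.79%) at an adjusted p under 0.05, and of 0 of the 47 members. With print-tip loess it called 59 probes, among them 1 member, Kif3b. With global loess the kinesins' dye effects ran down to -0.585 in the same gene, a subunit of the heterotrimeric kinesin of cilia and axons. An array pair holds both orientations, so its mean is free of a dye effect that is the same on both arrays.

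Dynein and dynactin genes read slightly lower on balance. Of 11 tested, 3 were higher and 8 lower, with a median of -0.085, and the median was 0.017 with print-tip loess and 0.013 without replicate 3. Dync1i1, the neuronal intermediate chain that joins dynein to dynactin, had the smallest p on the higher side. It read 0.11, 0.15 and 0.50 in pairs 3, 4 and 5, all higher, with a mean of 0.25 (SE 0.11, n = 3 replicates, 95% interval -0.02 to 0.53, adjusted p = 0.642 by limma). It was 0.128 without replicate 2 and 0.114 with print-tip loess. Single arrays of Dync1i1 were 4 higher and 2 lower, with a mean of -0.04 with collagen on Cy5 and 0.55 with collagen on Cy3. Its relative Dync1i2 was lower in each of the same 3 pairs, at -0.17, -0.15 and -0.04, but its mean of -0.12 turned to 0.023 with print-tip loess. Dynll2, a light chain that also serves Myo5a, had the smallest p on the lower side. It read -0.21, -0.16, 0.12, -0.53 and -0.38 in pairs 1 to 5, lower in 4 of 5, with a mean of -0.175 (SE 0.12, 95% interval -0.47 to 0.12, adjusted p = 0.66 by limma). Its 2 orientations disagreed: the mean was 0.14 over arrays with collagen on Cy5 and -0.61 over arrays with collagen on Cy3.

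Dynll1, the near-identical light chain and the dynein probe of highest intensity, read -0.12 (SE 0.105), from 0.067, -0.17, -0.30, 0.015 and -0.049. It turned to 0.017 with print-tip loess. Dctn2, which encodes the dynactin subunit dynamitin, is named for the evenness of its pairs, seen in the data. It read 0.057, 0.12, 0.11, 0.13 and 0.11, higher in all 5 pairs, with a mean of 0.105 (SE 0.09, 95% interval -0.11 to 0.32). Of listed probes measured in all 5 pairs, 6.61% were higher in all 5 and 5.96% lower in all 5. Among the 21 members so measured, Dctn2 alone was higher in all 5, and Map1b and Kif1b were lower in all 5.

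**Figure D2:**
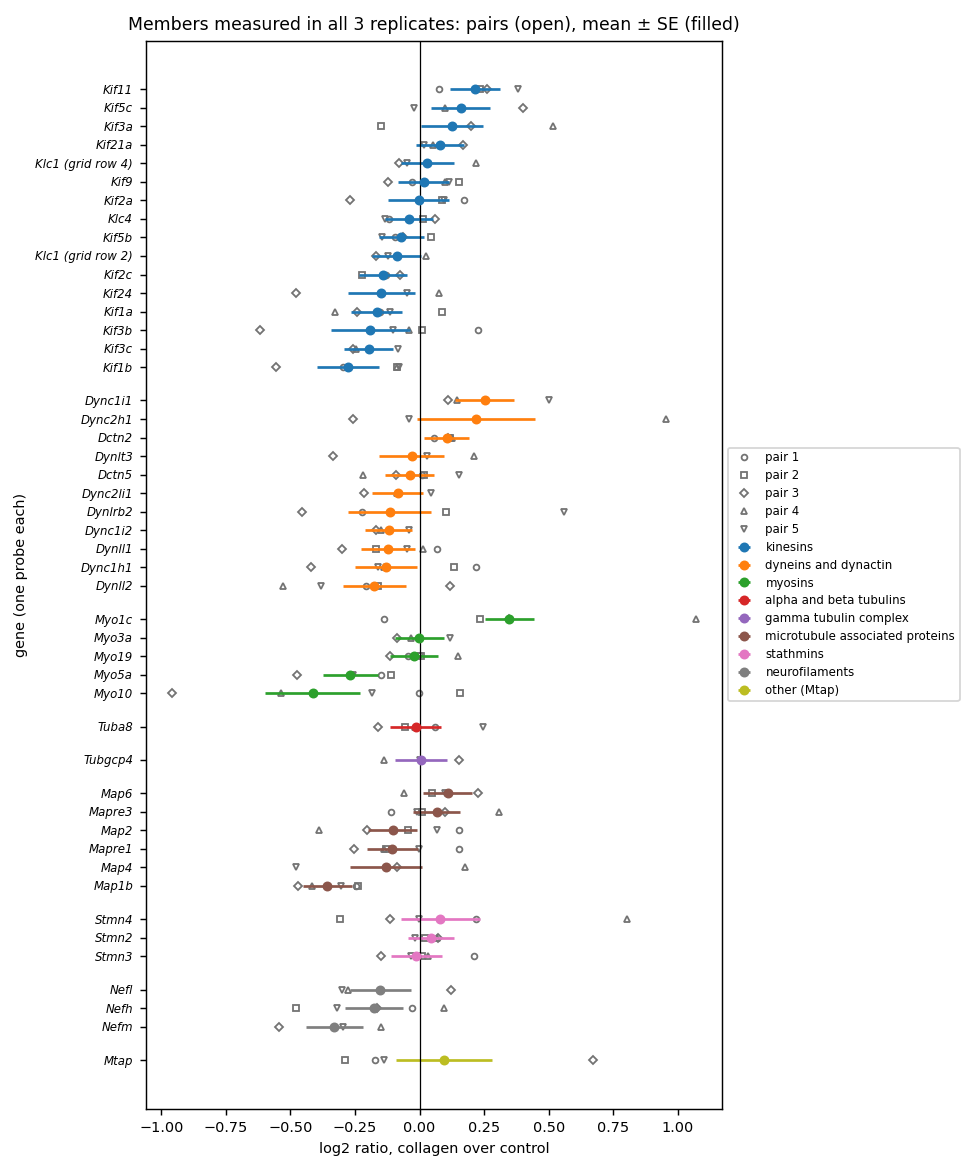
Log2 ratio of collagen over control (x axis) of the 47 members measured in all 3 replicates (y axis, grouped by class). Open symbols are dye-swap pairs, filled circles the mean over replicates and bars limma's SE. All 3 neurofilaments and Map1b lie below 0, Myo1c lies highest at 0.35, and most bars of the other genes reach or come close to 0.

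Of 15 myosin probes, 5 were tested (33.3%): 1 higher, 4 lower and a median of -0.02. Myo1c, which tethers membranes to actin and tunes the hair cells of the ear, was the only member higher at an unadjusted p under 0.05. Over 9 arrays its log2 ratio had a lowest value of -0.53, a median of 0.26 and a highest of 2.37, the last on the collagen-on-Cy5 array of pair 4. Its pairs read -0.14, 0.23, 0.345 and 1.07 for pairs 1 to 4, and pair 5 gave none, so the ratios lay on both sides of 0 and 4 of the 9 arrays were lower. The mean was 0.35 (SE 0.10, n = 3 replicates, 95% interval 0.11 to 0.58, 1.27 times the control), and the adjusted p by limma was 0.642 across all probes. Pairs 1 and 4, which share replicate number 1, were the lowest and the highest of its pairs, while the test saw only their mean. Without pair 4 the value was 0.15, and the ratio averaged 0.75 with collagen on Cy5 and -0.19 with collagen on Cy3.

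Myo5a carries vesicles and endoplasmic reticulum along actin, and is the gene of the dilute locus. It was lower on 7 of 9 arrays, with a lowest ratio of -0.86, a median of -0.16 and a highest of 0.05. The array at 0.05, of pair 4, had no partner value and entered neither the pairs nor the mean. The pairs of Myo5a read -0.15, -0.11, -0.47 and -0.26 for pairs 1, 2, 3 and 5, all below 0. The mean was -0.27 (SE 0.11, n = 3 replicates, 95% interval -0.53 to -0.01, 0.83 times the control), with adjusted p = 0.642 by limma. It was -0.13 with print-tip loess, and -0.165 without replicate 3. Myo10, a motor of filopodia, had the lowest mean of any member at -0.41 (SE 0.18, adjusted p = 0.642 by limma). Its pairs were far apart, at -0.003, 0.16, -0.96, -0.535 and -0.185, and it is named because of these values.

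**Figure D3:**
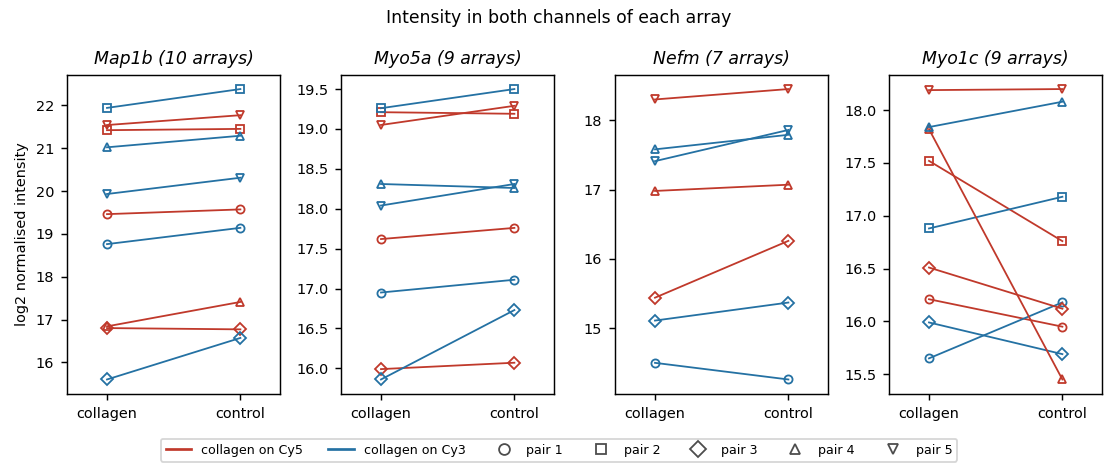
Log2 normalised intensity (y axis, a scale of its own for each gene) in the collagen and control channel of each array, joined by a line, for the 4 members with an unadjusted p under 0.05. Colour gives the dye of the collagen sample and the symbol gives the pair. Map1b lines climb towards control on 9 of 10 arrays, and the steepest Myo1c line is 1 array of pair 4.

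Tubulins themselves were thinly covered. Of 3 alpha and beta tubulin probes, only the alpha tubulin Tuba8 was tested. It read 0.060, -0.058, -0.16, -0.017 and 0.24 in pairs 1 to 5, on both sides of 0, with a mean of -0.015 (SE 0.10, 95% interval -0.25 to 0.22, adjusted p = 0.964 by limma). With print-tip loess it was -0.155. The beta tubulin Tubb2b, important in the migration of cortical neurons, was measured in 4 pairs and read -0.37, -0.28, -0.009 and -0.31 in pairs 1, 2, 4 and 5, all below 0. Replicate 3 gave no pair, so it had no place in the test, and its 9 single arrays were 7 lower and 2 higher. Tubb6 was measured in pair 3 at -0.22 and in pair 5 at 0.205. Tubgcp4, part of the ring complex that seeds microtubules, read 0.15, -0.14 and 0.001 in pairs 3, 4 and 5. Its mean was 0.006 (SE 0.10, 95% interval -0.24 to 0.25, adjusted p = 0.988 by limma), and -0.169 with median centring.

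All 6 microtubule-associated protein genes were tested, with 2 higher, 4 lower and a median of -0.104, and 5 of them were measured on all 10 arrays. Map1b, which is abundant in growing axons and remains in the adult brain, had the smallest p of all members. Its log2 intensity in the collagen channel was 19.46 and 18.76 on the arrays of pair 1, against 19.57 and 19.14 in the control channel. In pair 2 it was 21.42 and 21.94 in collagen, against 21.45 and 22.38 in control. Single arrays ran from -0.97 to 0.03 with a median of -0.32, and 9 of 10 were lower in collagen. Both extremes were the arrays of pair 3, which alone makes replicate 3. There the intensity was 16.8 and 15.6 in collagen, against 16.77 and 16.57 in control.

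The pairs of Map1b read -0.245, -0.24, -0.47, -0.42 and -0.30 for pairs 1 to 5, all below 0. The mean was -0.36 (SE 0.095, n = 3 replicates, 95% interval -0.59 to -0.13), or 0.78 times the control. The unadjusted p was 0.00874 and the adjusted p 0.642 by limma. The ratio was lower with collagen on either dye, at -0.18 on Cy5 and -0.49 on Cy3. The spot lies in grid row 4, in a grid whose median over all its probes was -0.147. Less that median it was -0.21, and with print-tip loess -0.26 (adjusted p = 0.829 by limma).

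Map1b was below 0 with an unadjusted p under 0.05 in all 21 distinct settings of the analysis, and in none with an adjusted p under 0.05. One setting used the authors' deposited log ratios, whose base and direction are unstated and which were taken as collagen over control. It gave -0.171, and the other settings gave -0.479 to -0.26. Settings that changed only which probes were tested left the ratio at -0.358 and could not move it. At an unadjusted p under 0.05, Myo1c stood in 11 of the 18 settings that tested it, Myo5a in 9 of 17 and Nefm in 8 of 15. Each kept its direction in all settings that tested it, but sizes varied. Myo1c ran from 0.004 to 0.549, Myo5a from -0.448 to -0.029 and Nefm from -0.583 to -0.161. The 0.004 of Myo1c and the -0.029 of Myo5a came from the authors' log ratios, on their own scale. Myo1c was 0.093 with the highest-gain reading. Of 1280 probes tested in all 21 settings, 2 had an unadjusted p under 0.05 in every one, and Map1b was 1 of them. The settings use the same 10 arrays, so this describes the stability of the value and adds no replicate. The other 5 genes of the class were closer to 0. Map6, which makes microtubules stable in the cold, read 0.107, 0.049, 0.23, -0.059 and 0.099, higher in 4 of 5 pairs, with a mean of 0.11 (SE 0.10, 95% interval -0.12 to 0.34, adjusted p = 0.685 by limma). Map2, the marker protein of dendrites and the most intense probe of the class, read 0.15, -0.044, -0.20, -0.39 and 0.067. Its mean was -0.10 (SE 0.10, 95% interval -0.34 to 0.13), and its orientations differed, with -0.68 over arrays with collagen on Cy5 and 0.52 on Cy3.

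All 3 stathmin genes were measured on all 10 arrays, and their median was 0.043, with 2 higher and 1 lower. Stmn2, known from growing neurites, read 0.046, 0.022, 0.070, 0.068 and -0.017 in pairs 1 to 5, close together. Its mean was 0.043 (SE 0.09, 95% interval -0.17 to 0.26, adjusted p = 0.874 by limma). It is a bright spot, flagged S in at least 1 reading on 4 arrays, a letter that the file headers do not define. Stmn3 read 0.21, 0.011, -0.15, 0.032 and -0.032, with a mean of -0.013 (SE 0.10, 95% interval -0.25 to 0.23). Stmn4 was the most scattered, at 0.22, -0.31, -0.11, 0.805 and -0.002, with a mean of 0.081 (SE 0.15, 95% interval -0.29 to 0.45). These intervals bound the changes that the data leave possible and do not show that stathmin levels were equal.

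The 3 neurofilament genes, whose proteins assemble together into 1 filament, were all lower on average, with a median of -0.18, and none passed the adjusted test. Nefm, the medium chain, was measured on 7 arrays, 6 of them lower, with a lowest ratio of -0.82, a median of -0.21 and a highest of 0.24. Its pairs read -0.54, -0.15 and -0.30 for pairs 3, 4 and 5, all below 0. The mean was -0.33 (SE 0.11, n = 3 replicates, 95% interval -0.60 to -0.06, 0.796 times the control), with adjusted p = 0.642 by limma. The array at 0.24, of pair 1, had no partner value, so it entered neither these pairs nor this mean. Fits on single arrays, which kept it, gave -0.228, and -0.256 with a dye term. Nefl, the light chain, read 0.12, -0.28 and -0.30 in pairs 3, 4 and 5, with a mean of -0.15 (SE 0.12, 95% interval -0.44 to 0.13). Nefh, the heavy chain, read -0.030, -0.48, -0.16, 0.093 and -0.32 in pairs 1 to 5, with a mean of -0.18 (SE 0.11, 95% interval -0.45 to 0.099).

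Place on the slide moved with the neurofilament values. The grids that hold Nefl, Nefm and Nefh had medians of -0.191, -0.137 and -0.13 over all their probes, and print-tip loess, which removes such a shift, gave -0.021, -0.161 and -0.011. The class median was then -0.021. In bulk tissue, fewer neurons or axons and less RNA per cell cannot be told apart. Of 5 neuron markers, 4 were tested, and 3 were lower and 1 higher, with a median of -0.064 and a range of -0.31 (Syt1) to 0.18 (Eno2). Snap25 read -0.12 and Syn1 -0.009. Of 4 excitatory neuron markers tested, 2 were higher and 2 lower, with Camk2a at -0.374 (-0.48, -0.28 and -0.37 in pairs 3, 4 and 5) and a median of -0.005. The 5 interneuron markers tested were 2 higher and 3 lower. Of 2 oligodendrocyte markers tested, Mal was at 0.354 and Mag at -0.081. The part of cell content in the neurofilament values was not tested. All 4 general neuron markers were measured in all 3 replicates, and markers of the endothelium had no probe here.

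**Figure D4:**
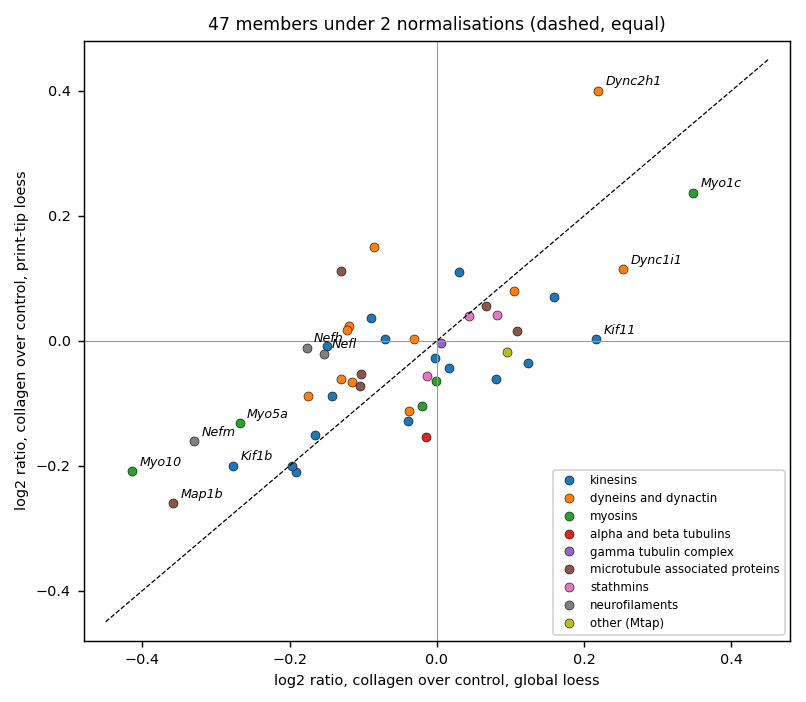
Log2 ratio of collagen over control of the 47 tested members with global loess (x axis) and print-tip loess (y axis). Colours are classes and the dashed line marks equal values. Map1b is the lowest member under print-tip loess at -0.26, where Myo10 was lowest with global loess, while Nefh, Nefl and Kif11 move to about 0.

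As a whole the members leaned lower: 31 of the 47 tested were lower in collagen (66.0%), against 54.5% of all probes, and their median was -0.039 against -0.019. That lean came with replicate 3. The members' median was 0.024, -0.021 and -0.123 in replicates 1, 2 and 3, where all probes had -0.018, 0.004 and -0.071. Without replicate 3, 25 of 50 members were lower, against 49.2% of all probes. The sign was the same in all 3 replicates for 18 members (38.3%), against 35.2% of all probes, so the members kept a sign about as often as any probe.

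The members were less scattered than the array as a whole, with a median SD between replicates of 0.136 against 0.174. Brighter members were steadier: the median SD over pairs was 0.152 for the 22 members at a log2 intensity of 18 or more, and 0.217 for the 25 below it. Spearman's rho between SD and intensity was -0.333 over the 47 members, which share the same 10 arrays. Across members, the pairs that share replicate number 2 (pairs 2 and 5) correlated at 0.513 over 28 members, and those of number 1 (pairs 1 and 4) at 0.166 over 23. Pairs of different numbers ranged from -0.053 to 0.365 across the members they had in common. Over all probes, pairs 2 and 5 correlated at 0.176 and pairs 1 and 4 at 0.088, against -0.006 to 0.201 for pairs of different numbers, so a shared number did not stand out there.

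Other genes that build or steer the same system were read in the same fit. Of 82 such genes, 40 had a probe, and 20 of their 44 probes were tested: 8 higher, 12 lower and 0 called, with a median of -0.031. One had an unadjusted p under 0.05, the microtubule-severing ATPase Spast, at 0.37 (SE 0.15, adjusted p = 0.642 by limma), from 0.04, 0.22, 0.75 and 0.44 in pairs 1, 2, 3 and 5. It was 0.235 with print-tip loess. Pafah1b1 (LIS1), the dynein regulator of neuronal migration, read -0.25, -0.29 and -0.06 in pairs 3, 4 and 5, with a mean of -0.20 (SE 0.10). On the higher side, the kinesin Kifc3 had a mean of 0.172 (SE 0.10), and 0.079 with print-tip loess. The tubulin-modifying enzymes Atat1, Hdac6 and Sirt2 read -0.067, -0.05 and -0.152. With print-tip loess they read -0.108, -0.052 and 0.036, so Sirt2 changed sign. A second Atat1 probe, not tested, read -0.8 in pair 3 and 0.03 in pair 5. The intermediate filament gene Ina, a partner of neurofilaments, was lower in its 4 measured pairs at -0.03, -0.17, -0.03 and -0.24, and had no pair 3.

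Mtap, the metabolic gene that shares only its letters with the class, read -0.17, -0.29, 0.67 and -0.14 in pairs 1, 2, 3 and 5. Its mean was 0.095 (SE 0.19, adjusted p = 0.863 by limma), and its sign rested on pair 3, since it was -0.192 without it.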

How the data were processed

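Each array came with 3 deposited readings of rising gain. Per the file headers, each holds a background-corrected spot intensity in channels A and B and a flag. The authors' deposited table holds a log ratio score per spot, of unstated base, direction and normalisation. It was used only as an alternative, taken as collagen over control. The sources used here name no scanner or software.

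Spots flagged X, Y or Z, letters that the file headers do not define, or at or below 0, were left out. Channel A was taken as Cy3, following their order in the labels. Log2 ratios were normalised per reading by limma global loess (span 0.3), averaged over the 3 readings, turned to collagen over control, and averaged over both arrays of a pair, then over the pairs of a replicate. A pair with a value on only 1 of its arrays was left out of these means. limma 3.58.1 (R 4.3.3, statmod 1.5.0) tested the mean of 3 replicates against 0 (lmFit, eBayes, two-sided, Benjamini-Hochberg). The procedure was tested on simulated data. Spots were matched to probes by grid position, and this numbering correlated with the authors' table at 0.725 to 0.908 per array. Symbols were checked through Entrez IDs against RefSeq (GRCm38.p6, 99% matched). No coordinates or sequences are given, as no build of the array or sequence of its probes was used here.

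Genes and lists were chosen with earlier results of these data known. Genes were named if the unadjusted p was under 0.05, if they had the smallest p on a side of their class or its highest mean intensity, or if 2 probes were tested. The other genes named were chosen after their values were seen. SE is limma's moderated standard error. The number of arrays limits the precision. Alternatives changed the loess, background correction, scaling, filter, reading, unit of replication and samples, and one used the authors' table.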

Additional observations from a re-analysis of the deposited data

Results flagged for a closer look

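Among the genes named by the rule and the class medians with 4 or 5 pairs, Mtap was the only one with a pair that stood far from the others. Its log2 ratio of collagen over control was 0.67 in pair 3, while pairs 1, 2 and 5 read -0.17, -0.29 and -0.14. The gap to the nearest pair was 0.842 of the whole range over 4 pairs. In all, 24 such groups of pair values were examined, which leaves out genes with 3 pairs, and chance marks about 5% of such groups.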

How the results depend on the processing

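The number of arrays and the missing values of many spots limit these values. No member passed an adjusted p under 0.05 in any setting run. Over all probes, 1 probe that is no member passed with scaling between arrays (adjusted p = 0.0324), 1 with the authors' values (0.0195) and 0 to 1 with one replicate or pair left out. The number of probes at an unadjusted p under 0.05, 268 of 4125 (6.5%) as reported, was 173 with print-tip loess (4.19%), 144 with median centring (3.49%) and 400 without background correction (9.7%). On fewer probes it was 110 of 1845 measured on all 10 arrays (5.96%), 172 of 2939 with the authors' values (5.85%) and 167 of 1845 with the 5 pairs as units (9.05%). It was 119 (of 2595) to 369 (of 5906) with one replicate or pair left out. Leaving out replicate 3 and leaving out pair 3 are the same fit. The dye effect was called for 21 probes with median centring. With the replicate block on the 10 arrays (consensus correlation -0.158) 342 probes had an unadjusted p under 0.05 and 0 passed, and with a dye term 294 and 0. Among the members named, Mtap turned to -0.054 and -0.014 in these block fits, Stmn3 to 0.028 and 0.019, Tuba8 to 0.028 and 0.018 and Tubgcp4 to -0.014 and -0.009. The block changed no adjusted call of a member, while Myo1c and Nefm had an unadjusted p above 0.05 in both block fits.

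Class medians depended on the setting and on the probes that it could test. With print-tip loess they were -0.155 for tubulins (Tuba8), -0.019 for microtubule-associated proteins, -0.104 for myosins and -0.021 for neurofilaments. Median centring gave -0.169 for the gamma tubulin complex and -0.113 for myosins, and normexp gave -0.268 for neurofilaments. Other settings tested fewer probes, so their medians also reflect a change of members. Probes measured on all 10 arrays gave -0.178 for kinesins (4 probes, against 16) and -0.217 for myosins (2 probes, against 5). That filter left each probe's own ratio unchanged. For myosins, the lowest-gain reading gave 0.353 and the 5 pairs as units -0.153, each on 2 probes. The authors' values, on their own scale, gave 0.002 for microtubule-associated proteins (5 probes, against 6). For neurofilaments they gave -0.018 (1 probe, against 3). Leaving out one replicate or pair also changed which probes were tested in most classes. Medians then ran from -0.089 to 0.024 for kinesins, -0.142 to -0.013 for microtubule-associated proteins and -0.16 to 0.005 for myosins. They ran from -0.281 to -0.079 for neurofilaments and -0.08 to 0.063 for stathmins.

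Several named genes changed sign, among them Kif11, which was 0.216 as reported. With print-tip loess Dynll1 read 0.017, Kif5b 0.002, the Klc1 probe in grid row 2 0.037, Mtap -0.018 and Tubgcp4 -0.003. With median centring Kif11 read -0.017, the Klc1 probes 0.034 (grid row 2) and -0.025 (grid row 4), Stmn4 -0.103 and Tubgcp4 -0.169. Without background correction the Klc1 probe in grid row 4 read -0.042, Tuba8 0.045 and Tubgcp4 -0.017, which was also its value with normexp. With scaling Mtap read -0.009, Tuba8 0.013 and Tubgcp4 -0.014. The highest-gain reading gave 0.147 for Klc1 (grid row 2) and 0.067 for Tuba8, and the lowest-gain reading -0.445 for Klc1 (grid row 2), without a change of sign, and 0.017 for Stmn3. The authors' values gave 0.067 for Klc1 (grid row 2) and 0.008 for Map2. With 5 pairs as units Stmn3 read 0.015 and Tuba8 0.014. With one replicate or pair left out, Klc1 (grid row 4) ran from -0.064 to 0.084, Mtap from -0.192 to 0.249, Stmn3 from -0.08 to 0.056, Stmn4 from -0.135 to 0.199, Tuba8 from -0.069 to 0.057 and Tubgcp4 from -0.068 to 0.077. The cause of these changes was not tested.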
